A study of Mus musculus with 2 samples.

Results

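Cd14, Ly96, Tirap, Myd88, Ticam1, Ticam2, Irak1, Irak2, Irak3 and Irak4 encode the co-receptors, adaptors and IRAK kinases that act just below Toll-like receptor 4 (TLR4). The genes were chosen by symbol, from their place in this pathway, and all 10 were found among the 55536 Ensembl genes of the deposited gene tables. All 10 also belonged to the 12952 genes that averaged at least 1 TPM (a level scaled by transcript length and to the same sum in each library). The material was ribosomal RNA-depleted total RNA from the nuclear fraction (nucleoplasmic in the sample descriptions) of C57BL/6J mouse macrophages grown from bone marrow. Every culture was exposed to Lipid A at 100 ng/ml for 12 hours, held without it for 12 hours, and given 100 ng/ml again for 20 minutes. Lipid A is the membrane anchor of bacterial lipopolysaccharide. The series held this 1 group in 2 libraries, labelled as biological replicates 1 and 2 with the same donor label, made from 1 µg and 500 ng of RNA, and sex and age were recorded as not collected. The sources used here do not give whether the replicates were separate animals, so the spread between them may be technical. No untreated, once-treated or cytosolic library belongs to the group, so no response to Lipid A and no tolerance was measured.

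CD14 passes lipopolysaccharide to MD-2, the Ly96 product, which holds Lipid A against TLR4. TIRAP and MyD88 then recruit IRAK4, IRAK1 and IRAK2 into a signalling complex at the plasma membrane, while TRAM (Ticam2) and TRIF (Ticam1) carry the signal from endosomes towards interferon genes. IRAK-M, the Irak3 product, is expressed mainly in monocytes and macrophages, restrains this signalling and is known for its part in endotoxin tolerance, so its nuclear RNA was set beside that of the 9 activating members.

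The IRAK family is shown first, because Irak3 is contrasted with its relatives and its unspliced RNA is taken up later. An active kinase of this family carries an aspartate in its catalytic loop. The spliced coding sequence around the codon aligned to that of Irak4 is printed for each family member, in GENCODE M21 on mm10, with the aligned codon in capitals.
Irak1-206: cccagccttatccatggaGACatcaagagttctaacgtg
Irak4-201: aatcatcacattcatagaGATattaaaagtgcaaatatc
Irak2-201: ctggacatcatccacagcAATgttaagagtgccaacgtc
Irak3-201: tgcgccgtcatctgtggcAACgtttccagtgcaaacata
The codons of Irak1 (GAC, chrX:74020951-74020953, minus strand) and Irak4 (GAT, chr15:94558868-94558870, plus strand) encode aspartate. Those of Irak2 (AAT, chr6:113676686-113676688, plus strand) and Irak3 (AAC, chr10:120165101-120165103, minus strand) encode asparagine. In each of the 4 genes this codon lies in exon 8 and is followed by 8 more bases before that exon ends. The intron that comes next has 407 bases in Irak1, 1950 in Irak2, 2567 in Irak4 and 18463 in Irak3.

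Each retained-intron transcript named here keeps all or part of an intron of the leading coding transcript. The 30 bases around the unspliced junction are printed for the introns the results turn on, with the intron's first bases, GT, or last bases, AG, in capitals.
Irak3-204 donor of intron 8: tggcaacgtttccagGTaaatgacctgaga
Irak2-208 donor of intron 3: cccttctagacacagGTgctctcctcccct
Irak4-203 donor of intron 6: taaagtaatggcaacGTaagtgtagatttt
Myd88-203 donor of intron 2: ttgatgaccccctagGTaagggcccagtac
Myd88-203 acceptor of intron 2: gtcccctgtcctcAGgacaaacgccggaac
Irak1-215 donor of intron 5: aagagactgaaggagGTaggtgtaacattg
Irak1-215 acceptor of intron 5: tgcctggggctacAGgaagctgacctagag
These stretches lie at chr10:120165078-120165107 (minus strand), chr6:113665832-113665861 (plus), chr15:94556677-94556706 (plus), chr9:119338561-119338590 and chr9:119338172-119338201 (minus), and chrX:74022458-74022487 and chrX:74022235-74022264 (minus), in the order printed, on mm10. The Irak3 junction is the one that follows the asparagine codon shown above, whose letters aac stand near the left end of the Irak3-204 line. Every stretch holds the GT or AG of a usual intron end, and whether splicing there differs from other introns was not tested.

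The gene tables held 21954179 and 17739520 expected counts in replicates 1 and 2. Their counts differed by far more than sampling noise (chi-square per degree of freedom 91.3 over 14347 genes), so they are not a single library deposited again. Mitochondrial mRNAs took 3.45% and 6.32% of the counts, and protein-coding genes 25.4% and 33.5% of the TPM. All 8 macrophage markers reached 1 TPM in both libraries, with sums of 2423 and 2834 TPM, which fits the label. Of 8 neutrophil and precursor markers 1 did so, with sums of 1.97 and 3.20 TPM and Ly6g, Elane and Retnlg at 0. None of the dendritic cell, lymphoid and stromal markers did, and the sums of these lists lay between 0.08 and 2.89 TPM. Cd3e, Ncr1, Col3a1 and Dcn were at 0 in both. The part of depth, RNA input or mitochondrial RNA in the differences between libraries given below was not tested.

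All 10 genes were present in both nuclear libraries. Each reached 1 TPM in both, as did 43.8% of all protein-coding genes. Their median level was 15.8 TPM, against 6.94 TPM for genes averaging at least 1 TPM, and 8 of the 10 lay above that typical gene. The order by mean TPM ran Cd14, Irak2, Myd88, Irak1, Ly96, Irak3, Ticam2, Irak4, Ticam1 and Tirap. Of the 9 neighbours in this order, 4 had library ranges that did not overlap: Cd14 above Irak2, Ticam2 above Irak4, Irak4 above Ticam1, and Ticam1 above Tirap. In the other transcript table, estimated separately from the reads, Ticam2 was 0.980 and 0.982 times Irak4, so that step had the opposite direction there. The other 5 neighbouring pairs, from Irak2 down to Ticam2, overlapped and are not separated by these libraries. Over all 45 pairs of members, 38 had separate ranges. The share of separate ranges among pairs of other genes was not computed, so neither count is read as a trait of these genes. In bulk RNA, fewer cells that express a gene and less RNA per cell cannot be told apart.

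**Figure D1:**
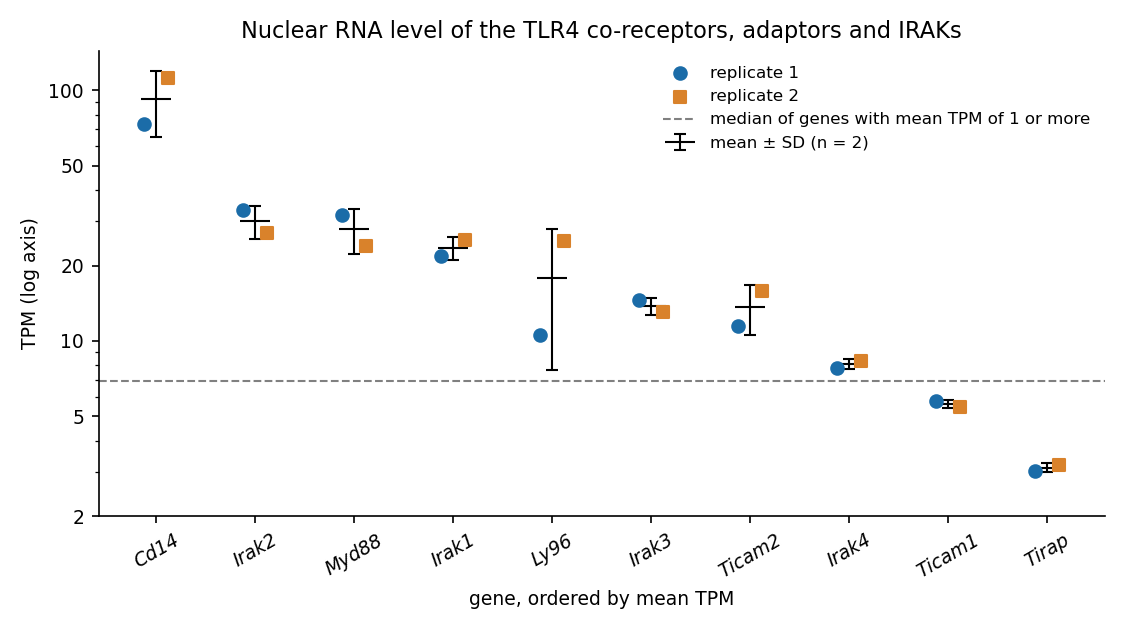
Level of each gene in TPM on a log axis, with replicate 1 as circles, replicate 2 as squares, and the mean and SD as bars. Cd14 stands alone at 73.2 and 112 TPM, Irak2, Myd88 and Irak1 form a group between 21.8 and 33.3 TPM, and Ticam1 and Tirap lie below the dashed line at 6.94 TPM, the median of genes averaging at least 1 TPM.

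The co-receptors included the most abundant gene, and their gaps between the libraries were, as ratios of TPM, the widest of the 10. Those ratios are not centred on the median gene. Without such centring, 72.1% of all genes averaging at least 1 TPM were higher in replicate 2. After centring, as log2(TPM + 1), Ly96 stayed the widest at 0.87, but Cd14 at 0.31 differed less than Myd88, Irak2, Irak3 and Ticam1. Cd14 (ENSMUSG00000051439.7, chr18:36725067-36726798, minus strand, mm10), which hands lipopolysaccharide on and is needed for the uptake of TLR4, had 73.2 TPM in replicate 1 and 112 in replicate 2, or 92.5 ± 27.2 TPM (SD, n = 2). This placed it at the 96.2nd percentile of genes averaging at least 1 TPM. Ly96 (ENSMUSG00000025779.10, chr1:16688051-16709611, plus strand), the Lipid A-binding partner of TLR4, had 10.6 and 24.97 TPM, or 17.8 ± 10.2 TPM (SD, n = 2). Replicate 2 was the higher library for both co-receptors. Ly96 rested on the fewest reads, 131 and 204 expected counts. Its share was 5.97 CPM (counts scaled to library size; 95% Wilson interval 5.03 to 7.08) in replicate 1 and 11.5 (10.03 to 13.2) in replicate 2, so counting error alone does not span the gap. These intervals cover counting error only.

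Between the adaptors, the sorting adaptor and the signalling adaptor of each branch stood in opposite order. Myd88 (ENSMUSG00000032508.8, chr9:119335934-119341411, minus strand), the adaptor of nearly all Toll-like receptors and of the IL-1 receptor family, had 31.9 and 23.9 TPM. Tirap (ENSMUSG00000032041.15, chr9:35184551-35200291, minus strand), which brings MyD88 to the membrane, had 3.03 and 3.21 TPM. Myd88 thus exceeded Tirap 10.5-fold in replicate 1 and 7.44-fold in replicate 2. In the TRIF branch the bridging adaptor was the more abundant. Ticam2 (ENSMUSG00000056130.10, chr18:46557291-46574533, minus strand), which links TLR4 to TRIF, had 11.5 and 15.8 TPM. Ticam1 (ENSMUSG00000047123.8, chr17:56269319-56276786, minus strand), which encodes TRIF, had 5.76 and 5.46 TPM. Ticam2 exceeded Ticam1 1.99-fold and 2.89-fold. The other table gave the same order in both branches, with 6.66-fold and 3.74-fold for Myd88 over Tirap and 2.13-fold and 2.996-fold for Ticam2 over Ticam1. Tirap and Ticam1 were the lowest 2 genes in the gene tables and rested on 290 and 260, and 479 and 310, expected counts. In the other table their order depended on the library, with Ticam1 over Tirap at 1.10 in replicate 1 and 0.835 in replicate 2.

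Within the IRAK family, the kinase that starts the cascade was the least abundant in nuclear RNA by gene TPM. Irak4 (ENSMUSG00000059883.16, chr15:94543643-94581815, plus strand), the first kinase to join MyD88, had 7.81 and 8.33 TPM. Irak1 (ENSMUSG00000031392.18, chrX:74013914-74023918, minus strand), which IRAK4 phosphorylates, had 21.8 and 25.2 TPM. Irak2 (ENSMUSG00000060477.14, chr6:113638467-113695026, plus strand), which sustains signalling to TRAF6, had 33.3 and 26.9 TPM. Irak3 (ENSMUSG00000020227.10, chr10:120141648-120202130, minus strand), the inhibitor, had 14.5 and 13.0 TPM, or 13.8 ± 1.06 TPM (SD, n = 2), on 1009 and 529 expected counts. Each library gave the order Irak2, Irak1, Irak3, Irak4, no ranges overlapped, and the other table gave the same order. The last step was small in that table in replicate 2, where Irak4 was 0.990 times Irak3, against 0.577 times in replicate 1. The step from Irak1 to Irak2 was small in replicate 2, where Irak2 was 1.07 times Irak1, against 1.53 times in replicate 1. By CPM, which is not divided by length, Irak2 and Irak1 had 85.4 and 68.2 in replicate 1 but 46.3 and 65.0 in replicate 2.

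Set against Irak3 in the same library, the 9 activating genes fell on both sides. Cd14, Irak2, Myd88 and Irak1 were higher than Irak3 in both libraries. Tirap, Ticam1 and Irak4 were lower in both, and Ly96 and Ticam2 were lower in replicate 1 and higher in replicate 2. Of all genes averaging at least 1 TPM, 25.2% were above Irak3 in both libraries and 64.4% were below it in both. Irak3 itself lay at the 69.5th percentile of level. No test was run, since an exact two-sided permutation over 2 libraries cannot give a p below 0.5, and the sizes below are within-library ratios of TPM.

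Cd14 was 5.04 times Irak3 in replicate 1 and 8.59 times in replicate 2. Irak2 was 2.30 and 2.07 times Irak3, a ratio that differed little between the libraries. Myd88 was 2.20 and 1.84 times Irak3. Irak1, the fourth gene above the inhibitor, was 1.50 and 1.94 times its level. Below it, Irak4 reached 0.538 and 0.640 of Irak3. Ticam1 reached 0.397 and 0.420 of Irak3. Tirap, the lowest, reached 0.209 and 0.247. The split genes were Ly96, at 0.731 and 1.92 times Irak3, and Ticam2, at 0.789 and 1.21 times. The median activating gene was accordingly 0.789 times Irak3 in replicate 1 and 1.84 times in replicate 2. In 7 of the 9 genes the ratio was larger in replicate 2, and Myd88 and Irak2 were the exceptions. The share of all genes with a larger ratio was not computed. Without centring, Irak3 itself was lower in replicate 2, at -0.147 in log2(TPM + 1), whereas 72.1% of all genes were higher. No trait of the activating genes is therefore read from this count. All 9 ratios share the Irak3 value of their library, so they are not independent of each other. The other table placed 8 of the 9 genes in the same class, and Ticam2 was below Irak3 in both libraries there, at 0.566 and 0.972. Irak4 stayed below Irak3 there at 0.577 and 0.990, and was thus nearly level with it in replicate 2. By CPM, 5 genes were above Irak3 and 4 below it in both libraries. Ticam2 joined the higher genes, and the short Ly96, at 5.97 and 11.5 CPM against 46.0 and 29.8 for Irak3, joined the lower ones.

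**Figure D2:**
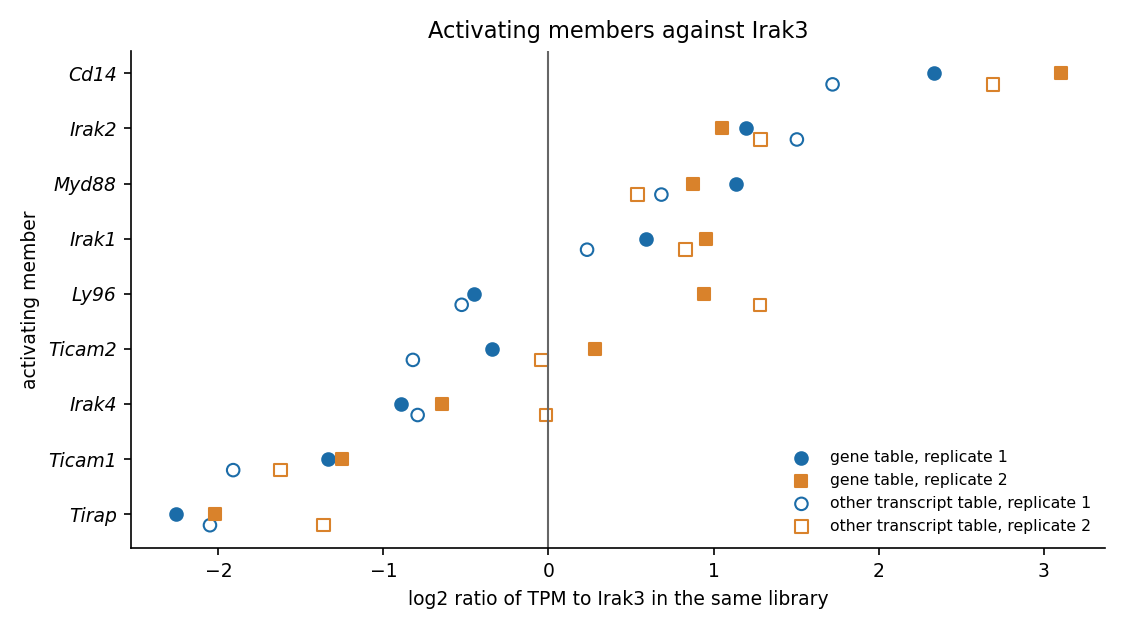
Log2 ratio of each activating gene to Irak3 in the same library, with filled symbols for the gene tables and open symbols for the other transcript table. Cd14, Irak2, Myd88 and Irak1 lie right of 0 in every library and table, Irak4, Ticam1 and Tirap lie left of it, and Ly96 changes sides between libraries in both tables. In replicate 2 of the other table, Irak4 lies almost at 0.

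The Irak3 level depended on which of its transcripts were counted. Irak3-201, the protein-coding transcript that led the gene, had 10.5 TPM in replicate 1 and 7.18 in replicate 2. Irak3-204, the annotated retained-intron transcript, had 2.62 and 5.09 TPM, and the processed transcript Irak3-203 had 1.23 and 0.74 TPM. In the gene tables the coding transcript was thus lower in replicate 2 and the retained one higher. The gene's summed TPM therefore differed less than either. Irak3-204 rested on 75.06 and 99.25 expected counts. Irak3-204 ends 117 bases into intron 8, the 18463-base intron behind the asparagine codon printed earlier. It took 18.04% of the gene's TPM in replicate 1 and 39.1% in replicate 2, or 7.44% and 18.8% of its expected counts. The deposited intervals of Irak3-204, whose level is not stated, overlapped at 1.49 to 3.80 and 3.08 to 6.26 TPM. In the other table its share was 31.0% and 33.4%, so the gap between the libraries seen in the gene tables was 21.1 percentage points and 2.42 in the other one.

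Counting only protein-coding transcripts, a setting added after the values were seen, Irak3 had 10.5 and 7.18 TPM and the same 4 genes stayed above it in both libraries. Cd14 then had 52.4 and 68.9 TPM, Myd88 25.1 and 18.8 TPM, Irak2 18.1 and 10.7 TPM, and Irak1 12.2 and 13.3 TPM, so that Irak1 was above Irak2 in replicate 2. Irak4, at 6.56 and 7.75 TPM, was below Irak3 in replicate 1 and slightly above it in replicate 2, so that Ticam1 and Tirap were the 2 genes left below it in both. Ly96, at 9.91 and 24.3 TPM, again changed sides, as did Ticam2 at 8.22 and 10.3 TPM.

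The same coding transcript led each gene in both libraries. This held for 9 of the 9 members with more than 1 annotated transcript, where 75.0% of comparable genes kept their leading transcript, and in all 9 it was protein-coding in both libraries, as in 77.1% of such genes. The other table named the same 9 transcripts. Comparable genes are protein-coding genes averaging at least 1 TPM and at least 2 transcripts. Ticam1 has 1 transcript. Tirap was led by Tirap-201, at 1.82 and 2.62 TPM, and has no annotated retained-intron transcript. Ly96 was led by Ly96-201, at 9.42 and 22.4 TPM, with its short coding transcript Ly96-202 at 0.49 and 1.960 TPM. Both coding transcripts of Ly96 had higher TPM in replicate 2, and the retained Ly96-203 was at 0.70 and 0.64 TPM. Ly96-202 rested on only 3.19 and 8.5 expected counts, with overlapping deposited intervals of 0.0691 to 1.46 and 0.465 to 4.13 TPM. Ly96-203 rested on 9.52 and 5.89 counts. No order between the libraries is therefore read from Ly96-202 or Ly96-203.

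Retained-intron transcripts were annotated for 8 of the genes and carried between 2.56% and 45.5% of a gene's TPM. The share was higher in replicate 2 in 6 of the 8, where 57.7% of all such genes had a higher share in replicate 2. The median share of the 8 genes was 24.8% in replicate 1 and 36.6% in replicate 2, beside 24.8% and 27.3% over all genes with such a transcript. By expected counts it was 13.4% and 17.5%, beside 14.4% and 16.2%, and was higher in replicate 2 in 5 of the 8. The share of all such genes that were higher by counts was not computed, so this count is not read as a trait of the members. TPM divides by length, and many of these transcripts are shorter than the coding ones, so shares of TPM and of reads differ. How far reads of RNA not yet spliced were assigned to the retained-intron transcripts was not measured.

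**Figure D3:**
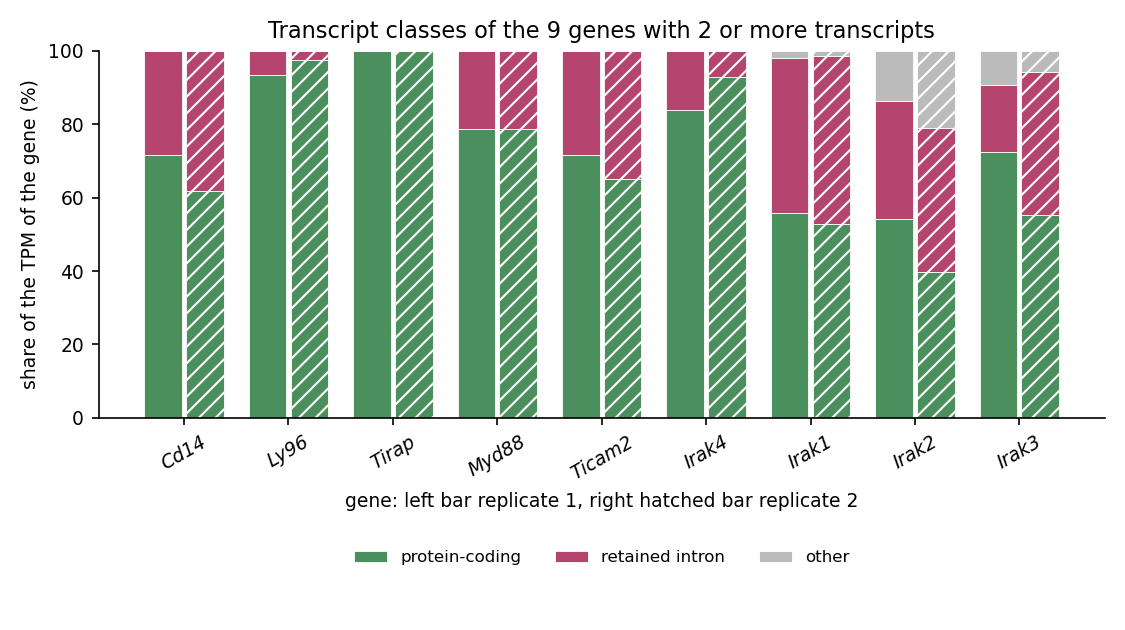
Share of each gene's TPM in protein-coding, retained-intron and other transcripts, in percent, with replicate 1 as the left and replicate 2 as the right, hatched bar. Myd88 holds 21.2% and 21.3% in its retained transcript, whereas Irak3 has 18.04% and 39.1% and Irak4 16.0% and 7.07%.

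Some retained transcripts hold a whole intron and others only its edge. Cd14-202 is unspliced over the single, 91-base intron of Cd14. It had 20.9 TPM in replicate 1 and 42.8 in replicate 2, with deposited intervals of 17.9 to 22.6 and 37.0 to 44.8 TPM that did not overlap. Spliced Cd14-201 had 52.4 and 68.9 TPM. The retained share of Cd14 was 28.5% and 38.3%, and the other table gave 29.2% and 37.4%, so both tables put it higher in replicate 2.

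Myd88-203 keeps introns 2 and 3 whole, which have 389 and 160 bases, and includes both ends of intron 2 printed earlier. It had 6.77 and 5.09 TPM, against 25.1 and 18.8 TPM for the spliced Myd88-201. Its share was thus the same to 0.0568 percentage points in both libraries, although the gene's own level was lower in replicate 2. By counts the share was 25.8% in both libraries, and the other table gave 22.9% and 23.7%.

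Irak1 had the most annotated transcripts, 22, of which 7 reached 1 TPM in a library, against 8 of 9 in Irak2. Irak1-206 led at 6.94 and 10.5 TPM, and Irak1-204, which is 10 bases shorter at 3825 against 3835 bases, had 4.13 and 2.33 TPM. The deposited intervals of Irak1-204 ran from 1.45 to 5.42 and from 0.00796 to 5.23 TPM, so the split between this pair is uncertain. Each of the 6 retained-intron transcripts of Irak1 keeps 1 or more of introns 1 to 5 whole. Irak1-215, which keeps the 223-base intron 5, had 2.42 and 5.19 TPM. Irak1-218, with introns 3 and 4, had 2.75 and 2.94 TPM, and Irak1-217, with intron 4 alone, had 1.72 and 0.77 TPM. Irak1-220 and Irak1-222, both with intron 1, had 1.39 and 0 TPM, and 0.54 and 1.63 TPM. The deposited intervals of each overlapped between the libraries, so no order between the libraries is read from this pair. In the other table Irak1-220 was not at 0 in replicate 2, and its share of the TPM of Irak1 was 8.89% and 6.72%. Together the retained transcripts held 42.3% and 45.5% of the TPM of Irak1 but 16.6% and 14.98% of its counts.

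By TPM, Irak2 had the lowest share of coding transcripts in replicate 2, 39.7%, whereas by expected counts Myd88 did, at 74.2% against 77.9% for Irak2. Irak2-201 had 16.3 and 8.29 TPM, with deposited intervals of 14.3 to 16.8 and 6.41 to 8.97 TPM that did not overlap. Among its retained transcripts, Irak2-208, which runs 163 bases past the intron 3 donor printed earlier, had 4.82 and 3.23 TPM. Irak2-207, which begins 38 bases before the end of intron 11, had 3.35 and 5.39 TPM, and Irak2-204, which begins in intron 3, had 2.47 and 1.97 TPM. A second coding transcript, Irak2-202, had 1.77 and 2.38 TPM. The remaining named transcripts were Irak2-206 at 2.13 and 1.79 TPM, Irak2-205 at 1.04 and 2.66 TPM, and Irak2-209, annotated as subject to nonsense-mediated decay, at 1.43 and 1.20 TPM. Retained transcripts held 31.9% and 39.4% of the TPM of Irak2 in the gene tables and 40.2% and 34.3% in the other table, so the direction between libraries differed between tables.

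Irak4 and Ticam2 completed the set. Irak4-201 had 4.30 and 4.40 TPM and the second coding transcript, Irak4-202, had 2.26 and 3.35 TPM. Irak4-203, which runs 262 bases past the intron 6 donor, had 1.25 and 0.59 TPM. The Irak4 retained share was 16.0% and 7.07% in the gene tables but 27.3% and 30.9% in the other table. Ticam2-201 had 8.22 and 10.3 TPM. Ticam2-202, which holds 1588 bases of the 11728-base intron 2, had 3.24 and 5.53 TPM, a share of 28.3% and 35.0%, with 34.0% and 38.2% in the other table.

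**Figure D4:**
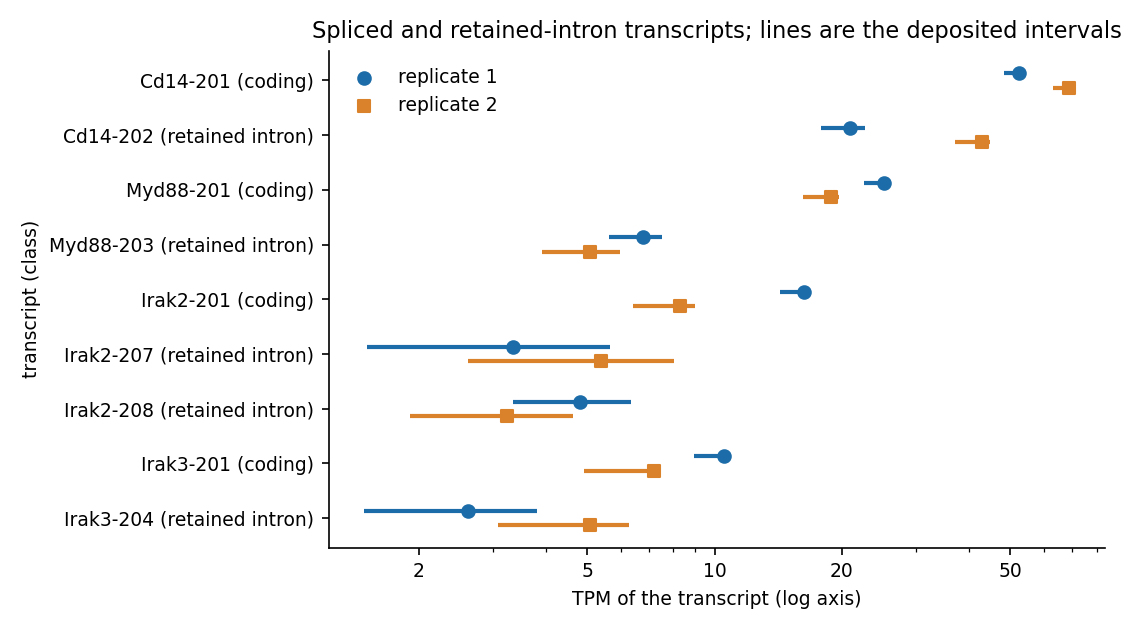
TPM on a log axis of the leading coding and the retained-intron transcripts of 4 genes (for Irak2, 2 of its 3 retained transcripts), with replicate 1 as circles, replicate 2 as squares and the deposited intervals as lines. The intervals of Cd14-202 and of all 4 coding transcripts do not overlap between the libraries, and those of Myd88-203, Irak3-204, Irak2-207 and Irak2-208 do. Several TPM values lie at the upper end of their interval. That of Cd14-201 in replicate 2, 68.94 TPM, lies just above its upper end of 68.90.

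None of the 10 genes differed over 2-fold between the libraries, a difference passed by 7.29% of all genes averaging at least 1 TPM. Differences are given as log2(TPM + 1) of replicate 2 minus replicate 1, less 0.29, the median of all genes. Ly96 was 0.87 higher in replicate 2, Cd14 0.31 higher and Ticam2 0.14 higher. At the other end stood Myd88 at -0.69, Irak2 at -0.59 and Irak3 at -0.44, followed by Ticam1 at -0.35, Tirap at -0.23, Irak4 at -0.21 and Irak1 at -0.09. The SD over all genes was 0.71, and the central 95% of genes lay between -1.30 and 1.04. The inducible Irak2 and the inhibitor Irak3 thus lay on the same side as Myd88, as did Ticam1, Tirap, Irak4 and Irak1. By CPM, Irak2, Irak3 and Myd88 were lower in replicate 2 as well, at 46.0 and 29.8 CPM for Irak3. So were Ticam1, Irak1 and Irak4, the last at 26.9 and 26.3 CPM. The share of all genes lower by CPM was not computed. The signs of Tirap, Irak4 and Irak1 turned when the median was not removed, where they were 0.06, 0.08 and 0.20. Without that centring 4 genes were lower in replicate 2 and 6 higher, against 7 and 3 with it, where 27.8% and 50% of all genes were lower, and Ly96 passed 2-fold at 1.16. By TMM-scaled counts, which are not divided by length, Irak2 passed 2-fold at -1.002. The other 7 genes kept their sign in all 12 settings, the main one included, though Ticam2 came as low as 0.0125. Rescaled TPM was centred again, so those settings could change little.

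**Figure D5:**
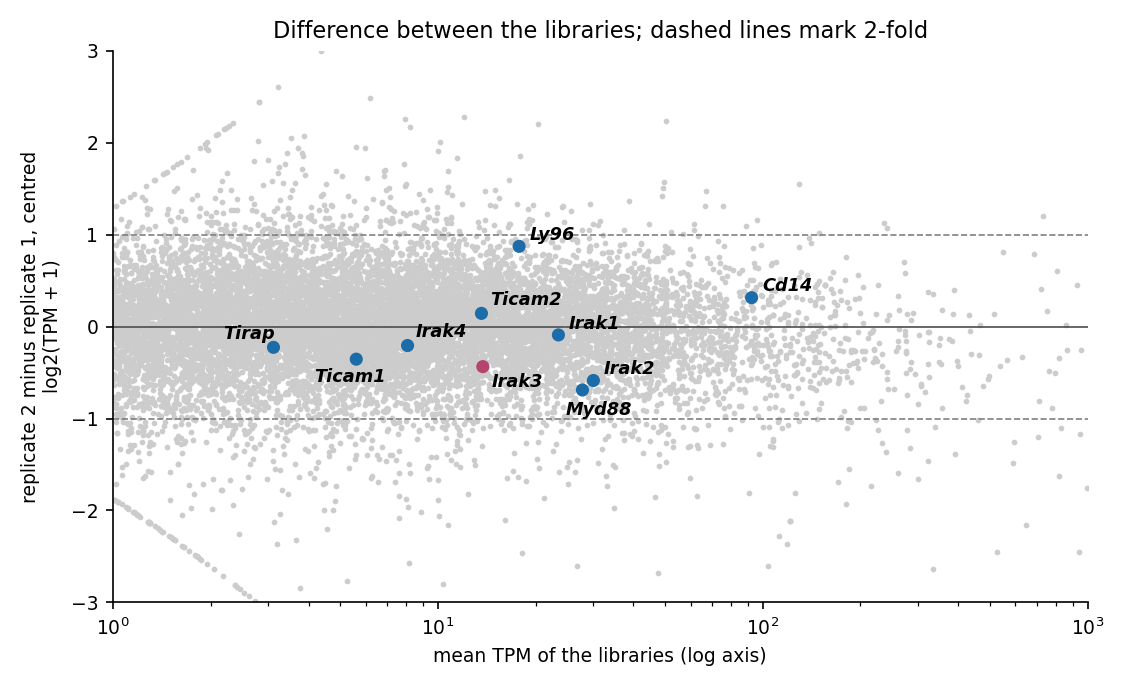
Centred log2 difference of replicate 2 minus replicate 1 against mean TPM on a log axis, with all genes in grey, of which 155 of 12952 lie outside the axes. The 10 genes lie between the dashed 2-fold lines, with Ly96 highest at 0.87, Myd88 lowest at -0.69 and Irak3, in red, at -0.44.

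Reads of some genes may be shared with neighbours. Ticam2 overlaps Tmed7, a regulator of the same pathway, on the same strand over 14.5% of its exonic bases. A strand setting could not tell those reads apart. The sources used here do not give that setting, so neighbours on the opposite strand may share reads too. On the opposite strand, Myd88 shares 11.3% of its exonic bases with Acaa1a, Tirap 9.05% with Gm39318, Irak4 7.87% with Twf1, Irak3 5.22% with Tmbim4 and Irak2 4.44% with Gm43963. How many reads were shared was not measured, and the levels of these genes are uncertain for that reason. Tirap, Ly96 and Irak4 also depended on the table. They had 3.22, 2.65 and 2.37 times as many counts in the other table in replicate 2, where the median gene had 1.74 times as many.

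The surrounding pathway was described from 5 lists of 45 further genes, of which 40 averaged at least 1 TPM. Among those 40, 1 gene differed over 2-fold, beside 7.29% of all genes averaging at least 1 TPM. It was Socs1, an inhibitor of cytokine and TLR signalling, at 7.58 TPM in replicate 1 against 2.15 in replicate 2. Its centred difference was -1.73. The 40 had a median difference of 0.01, with 19 lower and 21 higher in replicate 2, beside 50% of all genes each way. Of the receptor complex and related surface proteins, 6 of 7 averaged at least 1 TPM and exceeded Irak3 by mean TPM, though not all did so in replicate 1. The median over all 7 was 44.3 TPM. Irak3 lay at the 69.5th percentile of genes averaging at least 1 TPM. Of all protein-coding genes, 43.8% reached 1 TPM in both libraries, a stricter limit than a mean of 1 TPM. The genes were listed for their place in the pathway, so counts of genes at 1 TPM in the 5 lists are not read as traits. Cd180, a TLR4-related receptor of B cells and macrophages, had 227 ± 11.8 TPM (SD, n = 2), and the integrin chains Itgb2 and Itgam had 126 ± 8.25 and 60.5 ± 1.67 TPM (SD, n = 2).

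Other negative regulators stood on both sides of Irak3. Of 12 on the list, 9 averaged at least 1 TPM and 8 were above Irak3 by mean TPM, and the median over all 12 was 15.7 TPM. Not all of the 8 were above it in replicate 1. By mean TPM, Irak3 lay at the 69.5th percentile of genes averaging at least 1 TPM. The highest were Pik3ap1, an adaptor for PI3 kinase, at 202 ± 2.15 TPM, Tnfaip3, which encodes the ubiquitin-editing enzyme A20, at 79.8 ± 0.629 TPM, and Inpp5d, the lipid phosphatase SHIP1, at 75.8 ± 11.0 TPM (SD, n = 2 for each). The E3 ligases and kinases below the IRAKs had 13 of 14 genes at 1 TPM or more, and the median over all 14 was 17.96 TPM. After centring, 11 of these 13 were higher in replicate 2, beside 50% of all genes, and without centring 12 of 13 were, beside 72.1%. Leading them were Peli1, a ubiquitin ligase that acts with IRAKs, at 49.8 ± 10.5 TPM, Tab2 at 44.2 ± 12.7 TPM, and the ubiquitin-conjugating enzyme Ube2n at 42.4 ± 18.1 TPM (SD, n = 2 for each).

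The TRIF branch, which includes Ticam1 and Ticam2, had all 9 genes at 1 TPM or more and a median of 36.7 TPM. Both adaptors lay below that median. Ikbke, an inducible kinase of the interferon arm, had 346 TPM in replicate 1 and 269 in replicate 2, its relative Tbk1 had 55.2 ± 5.18 TPM and the scaffold Tank 50.2 ± 7.21 TPM (SD, n = 2). Of the genes for CD14-dependent endocytosis, all 5 reached 1 TPM, with Syk at 133 ± 4.67 TPM, the dynamin Dnm2 at 44.7 ± 2.33 TPM and the PI3 kinase subunit Pik3cd at 31.9 ± 4.62 TPM (SD, n = 2). All 5 of these were lower in replicate 2 after centring, beside 50% of all genes, and 3 of them without it, beside 27.8%.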

How the data were processed

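Nuclear total RNA of 1 group was measured in 2 libraries with a fragment size range of 250 to 400. Genome build mm10 and GENCODE M21 underlie the tables, per the deposited text files. The sources used here do not give the aligner, quantifiers and strand setting. The authors deposited expected counts (estimated reads, not normalised) and TPM per gene and transcript, isoform percent (the share of a transcript in its gene's TPM) and intervals for TPM, per the file headers. Another deposited transcript table held estimated counts and TPM, and was summed to genes.

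The members and gene lists were chosen with earlier results of these data known. Named were all 10 genes, transcripts at 1 TPM or more in either library (Ly96-203, below 1 TPM in both, was named after its values were seen), the top 3 genes of each list by mean TPM, and list genes past 2-fold. Levels were taken per library. Differences used log2(TPM + 1), which understates the change of low genes, centred on genes averaging at least 1 TPM. No test was run, since an exact permutation over 2 libraries cannot give a p below 0.5. Only the difference between libraries was tested on simulated counts. These held sampling noise alone, far less than the noise between the real libraries (chi-square per degree of freedom 91.3). The ratios to Irak3 and the transcript shares were not tested in this way. Settings tried were pseudocounts of 0.1 and 5, no centring, no filter, a minimum of 10 counts, the other table, rescaled TPM (protein-coding genes, or without mitochondrial genes and genes under 200 bases), counts not divided by length, TMM-scaled counts (edgeR 4.0.16, R 4.3.3, on rounded expected counts), and leaving out each replicate. Positions and sequences came from GENCODE M21 on mm10, and IRAK codons were matched by aligning the translated coding sequences. Software was Python 3.11.15 (scipy 1.17.1, matplotlib 3.10.9, pandas 2.3.3, numpy 2.4.6). A count of 0 allows up to 3 counts, or 0.137 and 0.169 CPM.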

Additional observations from a re-analysis of the deposited data

How the results depend on the processing

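No paired analysis was possible because the series holds 1 group. The median level of the members, 4.06 as log2(mean TPM + 1), was 3.30 in the other transcript table, 5.75 after rescaling to protein-coding genes, 5.55 as CPM and 5.96 in the other table so rescaled, a setting chosen after seeing the data. It ran from 3.80 to 4.35 when either replicate was left out. Their median percentile, 72.6, was 84.1 among all genes with any value and 86.0 in the other table. The median log2 ratio to Irak3, 0.24, ran from -0.34 without replicate 2 to 0.88 without replicate 1, and the number of genes below Irak3 ran from 3 to 5 when either was left out and was 2 over protein-coding transcripts only. The median difference between libraries, -0.22, was 0.073 without centring, -0.046 without a filter and -0.065 in the other table, and without centring 4 genes were lower in replicate 2 in place of 7. Ly96 passed 2-fold, as 1 member, without centring (1.16), without a filter (1.04), in the other table (1.13), in that table rescaled (1.02) and over protein-coding transcripts only (1.02), the last also chosen after seeing the data. With TMM-scaled counts the 1 member past 2-fold was Irak2, at -1.002. The number of pathway genes past 2-fold, 1, was 0 with a pseudocount of 5 and 2 over protein-coding transcripts only. The median retained-intron share, 30.1%, was 14.9% by counts. Tirap turned sign in 2, Irak1 in 3 and Irak4 in 4 of 12 settings, the main one included, and the signs of the other members' differences did not. With 131 to 310 counts in a library, Ly96 and Tirap are the least precise, with Ticam1 in replicate 2.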
